A study of Mus musculus with 2 samples.

Results

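The genes described here are the Wnt signalling genes of mouse back skin, compared between an array from a saline control and an array from FGF18 treatment. They were chosen by symbol: every gene starting with Wnt, Fzd, Sfrp or Dkk and a digit, plus a fixed set of co-receptors, secreted inhibitors, R-spondins, ligand-processing factors, cytoplasmic regulators and nuclear factors. Of 61 such symbols in the mouse gene table, 60 had a transcript cluster with a single symbol on the array, out of 22180 genes measured that way. Tcf7 was not analysed here. The skin came from male BALB/cAJcl mice at 7 weeks of age depilated on the back, which sets off anagen, the growth phase of the hair cycle. FGF18, a fibroblast growth factor, was given into the peritoneum 6 days after depilation at 100 µg, in saline with heparin at 5 µg/µl. Whole-body γ-irradiation at 6 Gy followed 24 h later, and skin was taken 4 h after that. The other group is labelled only as a saline control, so whether it was irradiated or given heparin is not known here. Its timing after depilation and the number of mice behind each sample are not known here either. Each group is a single array, so no test could be run and precision is limited. Every difference below compares these 2 arrays, and a difference due to the animals, the timing, heparin, the radiation or FGF18 cannot be told apart.

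Wnt proteins are secreted, lipid-modified ligands that bind Frizzled receptors and the co-receptors Lrp5 and Lrp6. In the canonical branch this stops the breakdown of β-catenin, which then joins Lef1 and Tcf factors on target genes. In skin the pathway is known for starting hair follicles in the embryo, for bringing resting follicles into growth and for directing matrix cells into the hair shaft, and other Wnt ligands act through β-catenin-independent branches that govern cell polarity and movement.

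Of the 60 Wnt pathway genes, 38 were higher on the FGF18 array, 19 were lower and 3 had equal values, and the median difference was 0.19 on the log2(intensity + 1) scale. Over all genes the median difference was 0.00 and 49.5% were higher. Genes whose mean level was at least the median over genes, called brighter genes here, tended to be higher after FGF18, with a median of 0.07 and 59.4% higher, and 39 of the 60 Wnt genes were among them. At least 1.5-fold higher were Nkd2, Lef1, Wif1, Fzd2, Wls, Fzd1, Wnt5a and Wnt11, which is 8 of 60 (13.3%) against 2.61% of all genes and 3.64% of the brighter genes. At least 1.5-fold lower was Wnt10a, 1 of 60, against 4.15% of all genes and 4.63% of the brighter genes. None of the 60 reached 2-fold, which 0.257% of all genes did upward and 1.06% downward. With a pseudocount of 16 in place of 1, which shrinks differences of dim genes, 4 were at least 1.5-fold higher (Nkd2, Wif1, Lef1 and Wls) against 0.546% of all genes, and none lower against 1.39%. After subtraction of the trend of difference with level, 5 were at least 1.5-fold higher (Nkd2, Fzd2, Lef1, Wif1 and Wnt11) against 2.25% of all genes, and 1 lower against 4.38%.

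**Figure D1:**
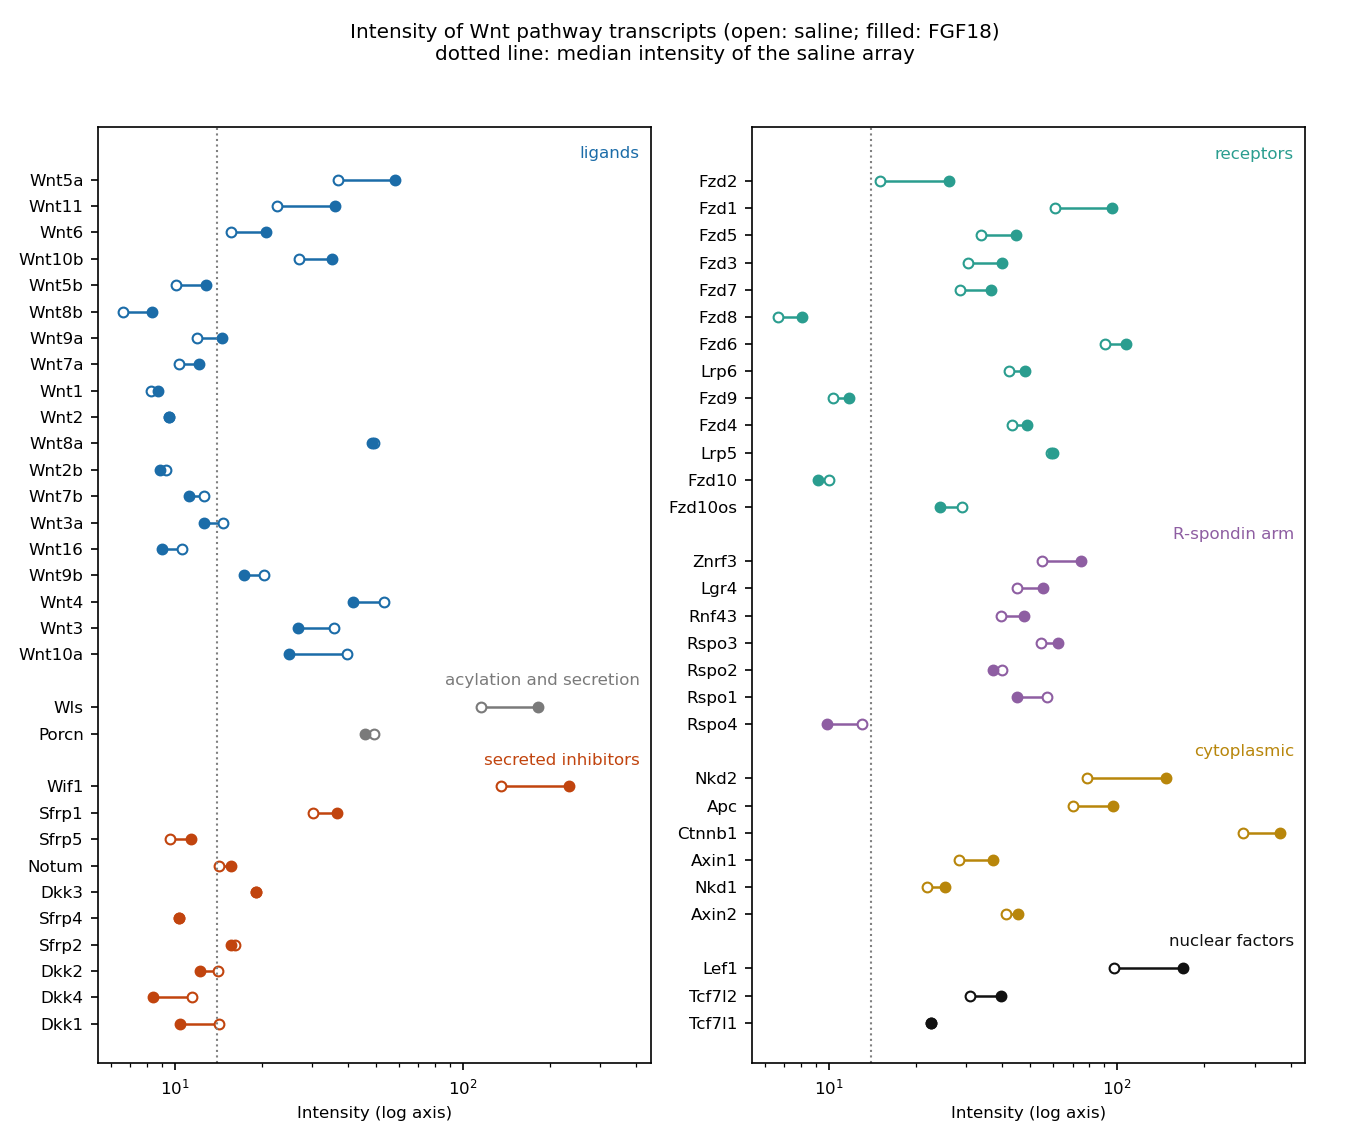
Intensity of each of the 60 Wnt pathway genes on a logarithmic axis, with an open point for the saline array, a filled point for the FGF18 array and a dotted line at the saline array's median of 14.0. The widest upward gap is that of Nkd2 (78.4 to 148) and the widest downward gap that of Wnt10a (39.6 to 24.8).

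The array medians, over all transcript clusters, were 14.0 in saline and 13.8 after FGF18. Genes dimmer than their array's median may be at background, so they are given by intensity alone, without a fold. By that rule 41 of the 60 genes were at or above the median on both arrays, 4 on 1 array only and 15 on neither. Intensities of different genes come from different probes and are not compared with each other. Where a gene is said to read 2 values, they are its intensities in saline and after FGF18, and a value in parentheses after them is the log2 difference unless called a fold.

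Markers of hair and epidermis also differed between the arrays, and their values are given here because the Wnt genes are expressed in the same structures. Of all 22180 genes, 49.5% were higher and 10094 were lower, with a median of 0.00. Of the 11090 brighter genes, 59.4% were higher and 4209 were lower, with a median of 0.07. All 10 markers of differentiated keratinocytes were lower after FGF18, with a median difference of -2.01 and a summed intensity of 17103 in saline and 4340 after FGF18. Of 8 inner root sheath markers 7 were higher, with a median of 0.98 and summed intensities of 3128 and 6173, and 10 of 11 keratin genes of the hair shaft were higher, with a median of 0.38 and sums of 733 and 1100. Dermal papilla markers had 8 of 10 higher with a median of 0.33 (sums of 506 and 659), basal keratinocyte markers a median of 0.09 over 6 (1125 and 953), melanocyte markers 0.46 over 6 (706 and 986) and macrophage markers 0.37 over 6 (155 and 204). Fibroblast markers had 5 of 7 lower with a median of -0.33 (1123 and 1018), and skeletal muscle markers a median of -0.14 (5258 and 4699). Adipocyte markers had a median of -0.09 but sums of 565 and 748. Endothelial markers had a median of 0.21 but sums of 102 and 95.0. All measured keratinocyte, inner root sheath and fibroblast markers of the labelled tissue were at or above the array median on both arrays. The part of these shifts in the Wnt values was not tested, and in whole skin more cells of a type and more RNA per cell cannot be told apart.

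The ligand genes were split evenly. Of 19 Wnt genes 9 were higher, 9 lower and 1 (Wnt2) equal on both arrays, with a median difference of 0.00. Wnt5a, a ligand of β-catenin-independent signalling that is known from the dermal papilla, had an intensity of 36.7 in saline against 58.2 after FGF18 (1.57-fold higher). Wnt11, another ligand best known for that branch, read 22.6 and 35.9 (1.56-fold higher). Wnt5a was 0.49 and Wnt11 0.43 higher on the log2 scale with a pseudocount of 16, both under 1.5-fold. Wnt5b, a relative of Wnt5a, was below the median on both arrays (10.1 and 12.8).

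At the other end stood ligands that are known from the epithelium of skin and follicle and that can signal through β-catenin. Wnt10a, whose loss impairs hair and teeth, had an intensity of 39.6 in saline against 24.8 after FGF18 (1.57-fold lower). With a pseudocount of 16 its difference was -0.44, under 1.5-fold. Wnt3 read 35.6 and 26.7 (difference -0.40) and Wnt4 53.2 and 41.5 (-0.35). Wnt10b, the close relative of Wnt10a that is known as an anagen ligand of the follicle, lay on the opposite side, with 27.0 in saline and 35.1 after FGF18 (0.37). Among the remaining ligands above the median on both arrays, Wnt6 read 15.6 and 20.7 (0.38), Wnt9b 20.5 and 17.4 (-0.22) and Wnt8a 49.2 and 48.4 (-0.03). Epithelial ligands therefore did not all lie on one side.

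The other 10 ligand genes lay below the median on at least 1 array. Wnt9a read 11.9 in saline and 14.6 after FGF18, and Wnt3a read 14.7 and 12.6, each above the median on 1 array. Wnt1, Wnt2, Wnt2b, Wnt5b, Wnt7a, Wnt7b, Wnt8b and Wnt16 lay below it on both, between 6.63 (Wnt8b) and 12.7 (Wnt7b) in saline and between 8.36 (Wnt8b) and 12.8 (Wnt5b) after FGF18. Wnt2 read 9.57 on both arrays, equal to the last deposited digit.

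Several Wnt genes lie beside another Wnt gene in the mouse genome, with no other protein-coding gene between, as listed in the gene table of assembly GRCm38.p6. On chromosome 1, Wnt6 and Wnt10a had differences of 0.38 and -0.65, in opposite directions. On chromosome 11, Wnt9b and Wnt3 were both lower, at -0.22 and -0.40. Wnt3a and Wnt9a, a pair on that chromosome, each lay below the median on 1 array, so no direction is taken from them. On chromosome 15, Wnt10b was higher (0.37) and its neighbour Wnt1 was below the median on both arrays (8.26 and 8.75). Adjacent ligand genes thus did not share a direction in every pair.

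Ligand processing was measured by 2 genes. Wls, the carrier that takes Wnt proteins to the cell surface, had an intensity of 115 in saline against 183 after FGF18 (1.58-fold higher), or 0.55 on the log2 scale after trend subtraction, under 1.5-fold. Porcn, the acyltransferase that attaches the lipid, read 49.3 and 45.6, a difference of -0.11. That is smaller than 0.24, the standard deviation between clusters of a gene.

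Receptor genes were mostly higher. Of 10 Frizzled genes 9 were higher and 1 lower on the FGF18 array, with a median difference of 0.29. Among all genes 49.5% were higher, and among the brighter genes 59.4%, with medians of 0.00 and 0.07. Fzd8 and Fzd9, counted as higher, and Fzd10, the lower 1, lay below the array median on both arrays. Fzd2 had an intensity of 15.1 in saline against 26.0 after FGF18 (1.68-fold higher), but its saline value was close to the array median and with a pseudocount of 16 its difference was 0.44. Fzd1 read 60.8 and 96.2 (1.57-fold higher), and its difference was 0.55 both with a pseudocount of 16 and after trend subtraction, below 1.5-fold. Both are receptors that can pass on β-catenin signals.

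The further Frizzled genes above the median had smaller differences of the same sign. Fzd5 read 33.7 and 44.7 (0.40), Fzd3 30.3 and 40.0 (0.39) and Fzd7 28.4 and 36.5 (0.35). Fzd6, a Frizzled that orients hair follicles through planar cell polarity, read 90.6 and 107 (0.24), and Fzd4 read 43.1 and 48.5 (0.17). Fzd8, Fzd9 and Fzd10 lay below the median on both arrays, with saline and FGF18 intensities of 6.67 and 8.05, 10.3 and 11.8, and 10.0 and 9.14. The co-receptor genes were nearer to equal: Lrp5 read 59.0 and 59.8 (0.02, and -0.09 after trend subtraction). Lrp6 had a mean difference of 0.18 over 2 transcript clusters, of which the brighter read 141 and 164 and the dimmer 12.2 and 13.6. The symbol rule also took in Fzd10os, a noncoding RNA gene beside Fzd10 that encodes no receptor, which read 29.0 and 24.2 (-0.25). Over all 13 genes of this role the median was 0.24, and without Fzd10os it was also 0.24.

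Secreted inhibitors had no common direction, with 4 higher, 4 lower and 2 equal of 10 and a median difference of 0.00. Of the 5 at or above the array median on both arrays, 3 were higher, 1 lower and 1 equal, with a median of 0.13. Over all genes at or above the median on both arrays, 58.4% were higher, with a median of 0.07. Wif1, which binds Wnt ligands outside the cell and is known from the dermal papilla, had an intensity of 135 in saline against 232 after FGF18 (1.71-fold higher). Its difference was between 0.67 and 0.78 with a pseudocount of 16, with none and after trend subtraction, the settings that changed it. Sfrp1, a decoy that carries a Frizzled-like domain, read 30.2 and 36.6 (0.27). Sfrp2 had a difference of -0.04 over 2 clusters that went apart, 29.9 and 31.3 in the brighter and 8.56 and 7.64 in the dimmer. Sfrp4 and Sfrp5 were below the median on both arrays, at 10.4 and 10.4 and at 9.64 and 11.4.

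None of the Dickkopf genes was higher on the FGF18 array. Dkk1, which blocks Lrp5 and Lrp6 and is known for promoting regression of the follicle, read 14.3 in saline and 10.4 after FGF18. Dkk2 read 14.2 and 12.3 and Dkk4 11.5 and 8.41, and Dkk3, a divergent member, read 19.1 on both arrays. All but Dkk3 were below the array median after FGF18, so no fold is given. Notum, an enzyme that removes the lipid from Wnt ligands, had a difference of 0.13 over 2 clusters that read 23.6 and 23.9 and, below the median, 8.44 and 10.1.

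**Figure D2:**
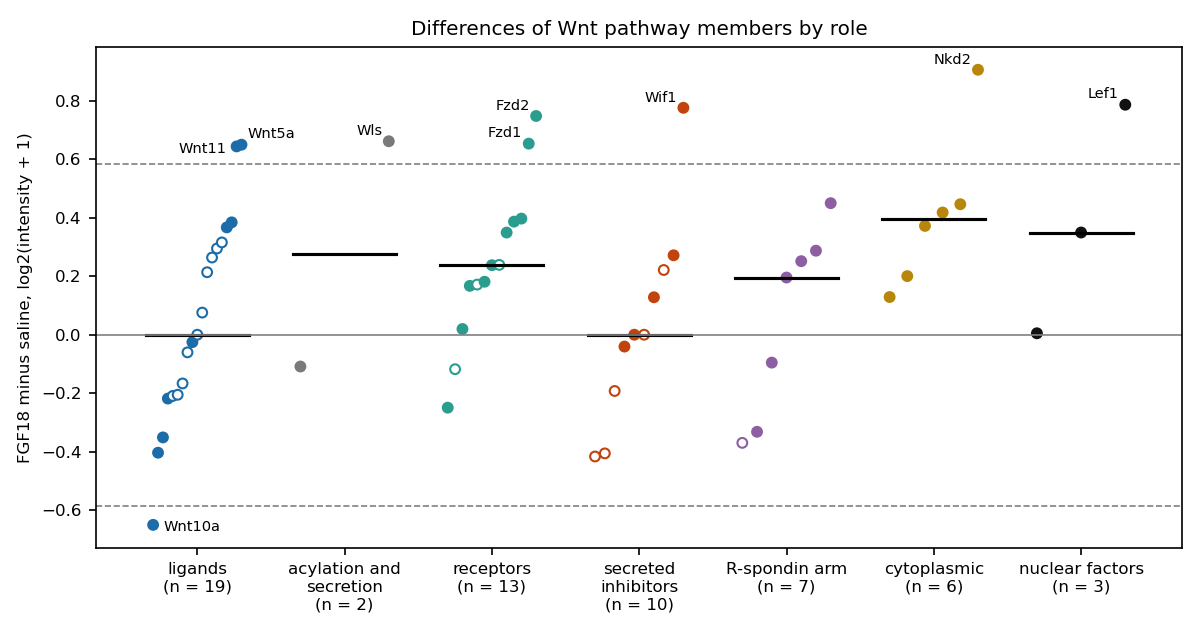
Difference of each of the 60 genes by role, as log2(intensity + 1) after FGF18 minus that in saline, with a black bar at the role's median and dashed lines at 1.5-fold. Filled points were at or above the array median on both arrays and open points were not. Ligands and secreted inhibitors spread around a median of 0.00, while all 6 cytoplasmic genes lie above 0.

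The R-spondin arm tunes how many Frizzled receptors stay on the cell surface: the ubiquitin ligases Znrf3 and Rnf43 remove receptors, and R-spondins, bound to Lgr receptors, clear the ligases. Both ligases of this arm were higher on the FGF18 array, while its ligands did not share a direction. Znrf3 read 54.6 in saline and 75.0 after FGF18 (0.45), Rnf43 39.6 and 47.4 (0.25) and the receptor Lgr4 45.0 and 55.2 (0.29). Rspo1 read 56.9 and 45.0 (-0.33) and Rspo2 39.7 and 37.1 (-0.10), and Rspo4 was below the median on both arrays, at 13.1 and 9.87. Rspo3 was higher, with 54.3 and 62.4 (0.20). The differences of Rspo2 and Rspo3 were smaller than 0.24, the standard deviation between clusters of a gene. No gene of the arm reached 1.5-fold, and the median over its 7 genes was 0.20.

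All 6 cytoplasmic genes were higher on the FGF18 array, with a median difference of 0.40. All 6 belong to the brighter genes, of which 59.4% were higher with a median of 0.07. Nkd2, a Dishevelled-binding antagonist of Wnt signals, had the highest difference of the 60 genes. It had an intensity of 78.4 in saline against 148 after FGF18 (1.88-fold higher). With a pseudocount of 16, with none and after trend subtraction its difference was between 0.80 and 0.92. Its relative Nkd1 read 21.9 and 25.3 (0.20). Ctnnb1, which encodes β-catenin, read 274 and 367 (0.42), and the scaffold genes of the complex that degrades it, Apc and Axin1, read 70.5 and 96.5 (0.45) and 28.4 and 37.0 (0.37). Axin2, a widely used readout of β-catenin activity, had a difference of 0.13 that its 2 clusters did not share: 1 read 43.7 and 56.5 (0.36), the other 39.0 and 36.2 (-0.10). After trend subtraction the Axin2 difference was 0.03, and with the brightest cluster alone it was 0.36, close to that of Axin1.

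The nuclear factors were led by Lef1. Lef1, the partner of β-catenin in hair matrix and precortex cells, had an intensity of 97.3 in saline against 169 after FGF18 (1.73-fold higher). Its difference was between 0.68 and 0.79 with a pseudocount of 16, with none and after trend subtraction. Tcf7l2 read 30.8 and 39.6 (0.35). Tcf7l1, a repressor known from follicle stem cells, read 22.5 and 22.6 (0.00). The 3 factors thus did not move alike, with Lef1 second only to Nkd2 among the 60 genes and Tcf7l1 nearly equal on both arrays.

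**Figure D3:**
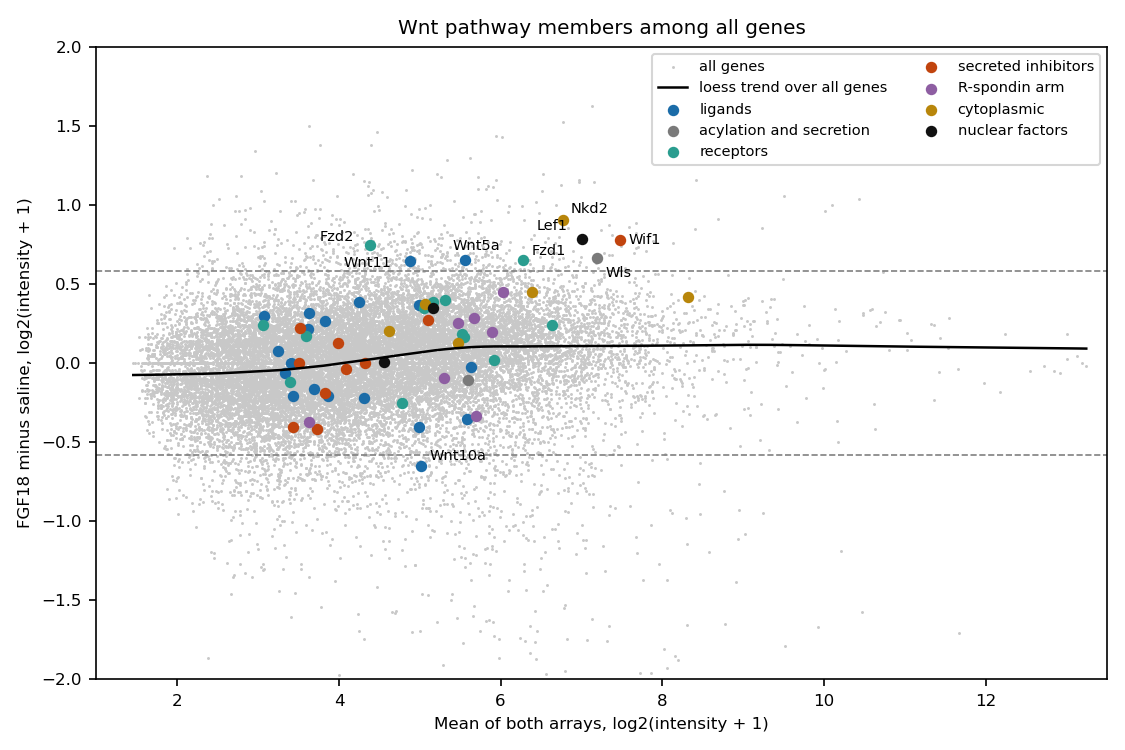
Difference against mean level for all 22180 genes (grey), with the Wnt pathway genes coloured by role, a loess trend over all genes (black line) and dashed lines at 1.5-fold. 34 genes fall outside the vertical range shown. Nkd2, Lef1, Wif1 and Wls lie above the upper line at levels where the trend itself is near 0.1.

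RefSeq promoter windows (build GRCm38.p6) matched 38 of the 60 genes by symbol, and were searched in the 250 bases before the most upstream listed start of each gene. The letters searched were a short form of the site of Tcf and Lef factors, CTTTGNN with A or T at each N, on either strand. They were found in 3 of the 38 windows (7.89%), those of Wnt11, Fzd7 and Dkk1, and in 4031 of 27025 windows over all genes (14.9%). Windows of the Wnt pathway genes had a median of 68.6% G and C, against 52% over all genes. The windows of the 3 genes with the highest differences are shown with that of Dkk1, the window with 2 matches, on the strand of the gene and in lower case, with the searched letters in capitals.
Nkd2, chr13:73847632-73847881, minus strand: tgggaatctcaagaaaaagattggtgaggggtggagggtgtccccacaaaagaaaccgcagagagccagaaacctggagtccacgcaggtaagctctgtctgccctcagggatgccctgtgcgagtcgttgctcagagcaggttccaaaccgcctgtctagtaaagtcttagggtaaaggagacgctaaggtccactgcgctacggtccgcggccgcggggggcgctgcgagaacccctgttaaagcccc
Lef1, chr3:131110047-131110296, plus strand: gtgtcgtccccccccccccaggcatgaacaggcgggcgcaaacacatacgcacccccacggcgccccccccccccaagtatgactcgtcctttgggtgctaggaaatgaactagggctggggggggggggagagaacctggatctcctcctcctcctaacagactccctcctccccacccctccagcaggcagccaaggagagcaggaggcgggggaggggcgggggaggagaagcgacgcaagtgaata
Wif1, chr10:121033754-121034003, plus strand: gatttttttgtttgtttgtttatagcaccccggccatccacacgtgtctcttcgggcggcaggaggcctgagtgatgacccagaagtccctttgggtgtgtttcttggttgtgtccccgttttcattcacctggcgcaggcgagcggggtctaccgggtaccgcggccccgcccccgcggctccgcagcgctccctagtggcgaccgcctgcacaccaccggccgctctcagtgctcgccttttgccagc
Dkk1, chr19:30549497-30549746, minus strand: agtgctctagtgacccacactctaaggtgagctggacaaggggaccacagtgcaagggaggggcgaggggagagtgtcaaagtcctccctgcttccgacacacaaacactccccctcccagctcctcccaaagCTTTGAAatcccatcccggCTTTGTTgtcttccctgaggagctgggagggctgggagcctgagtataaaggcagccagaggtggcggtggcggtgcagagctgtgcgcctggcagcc
The Dkk1 matches start 117 and 98 bases before the start of the gene, and Dkk1 was dim on the FGF18 array. The windows of Nkd2, Lef1 and Wif1 hold none of these letters, which says nothing about sites elsewhere. The Nkd2 window overlaps the noncoding RNA gene Gm30303. The Wnt11 window overlaps Gm33770 and reaches into the annotated Wnt11 gene. Several other windows also reach into their own annotated gene, among them those of Wnt6, Wnt10b and Axin2.

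Known or proposed target genes of the pathway were mostly higher, in a list that was chosen with earlier results of these data known. Of 22 measured genes of the target list, 20 were higher and 2 lower, 6 of them at least 1.5-fold higher and none at least 1.5-fold lower, with a median difference of 0.31. The list holds 8 of the genes described above, and among its 14 other genes 13 were higher, with a median of 0.37. Of all genes, 49.5% were higher by any amount and the median was 0.00. The 1.5-fold call was met upward by 2.61% of all genes and downward by 4.15%. Of the brighter genes, to which 16 of the 22 belong, 59.4% were higher by any amount, with a median of 0.07. The same call was met upward by 3.64% of the brighter genes and downward by 4.63%.

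Msx2 and Dlx3, homeobox factors of matrix and shaft, read 27.0 and 43.8 (1.60-fold higher) and 77.8 and 125 (1.59-fold). Edar, the ectodysplasin receptor of follicle formation, read 19.2 and 30.7 (1.57-fold), and Apcdd1, a membrane inhibitor of Wnt signals, 65.1 and 98.3 (difference 0.59). Trps1, a zinc finger factor of the follicle, and the cyclin gene Ccnd1 had differences of 0.55 and 0.52. The remaining targets above the median had differences under 0.3, with Foxn1 at 0.28, Bmp4 at 0.20, Myc at 0.19 and Sox9 at 0.08. Lgr5, Twist2 and Fgf20 were below the median on at least 1 array, as was Sp5, a direct target, which read 19.1 in saline and 13.4 after FGF18. Msx2, Dlx3 and Foxn1 are also in the list of hair matrix factors, in which 4 of 5 were higher, against 59.4% of the brighter genes. The median over that list was 0.67, with summed intensities of 252 and 333. The part of the amount of hair matrix in these target values was not tested.

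Further genes of the pathway, outside the symbol rule, were also mostly higher, by small amounts. Of 48 measured, 38 were higher and 10 lower, 3 were at least 1.5-fold higher and none at least 1.5-fold lower, with a median of 0.16. Among all genes 2.61% were at least 1.5-fold higher and 4.15% lower. Of the brighter genes, to which 41 of the 48 belong, 3.64% were at least 1.5-fold higher, 4.63% lower and 59.4% higher by any amount. Apcdd1, already described as a target, is among the 3, and Lgr5 is also in both lists. Amer1, which brings the degradation complex to the membrane, had an intensity of 16.5 in saline against 31.0 after FGF18 (1.82-fold higher). Its saline value was close to the array median of 14.0. Calls on single genes of this list were not repeated with a pseudocount of 16, which shrinks differences of dim genes. Prickle2, Celsr1 and Vangl2, genes of planar cell polarity, followed, with Prickle2 at 1.54-fold higher (18.3 and 28.7) and the others at 0.58 and 0.55, while their relative Vangl1 was at 0.14 and Celsr3 was dim on both arrays (10.7 and 7.90). Lower were Frzb, a secreted decoy related to the Sfrp genes (21.3 and 15.5, difference -0.43), and Ctnnbip1, an inhibitor that binds β-catenin (30.7 and 22.7, -0.42). Lrp4, a receptor that dampens Wnt signals with its ligands, had a difference of -0.35 and Dvl2 and Dact2 differences of -0.15 and -0.08. Gsk3b, the kinase that marks β-catenin for breakdown, read 125 and 129 (0.04).

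**Figure D4:**
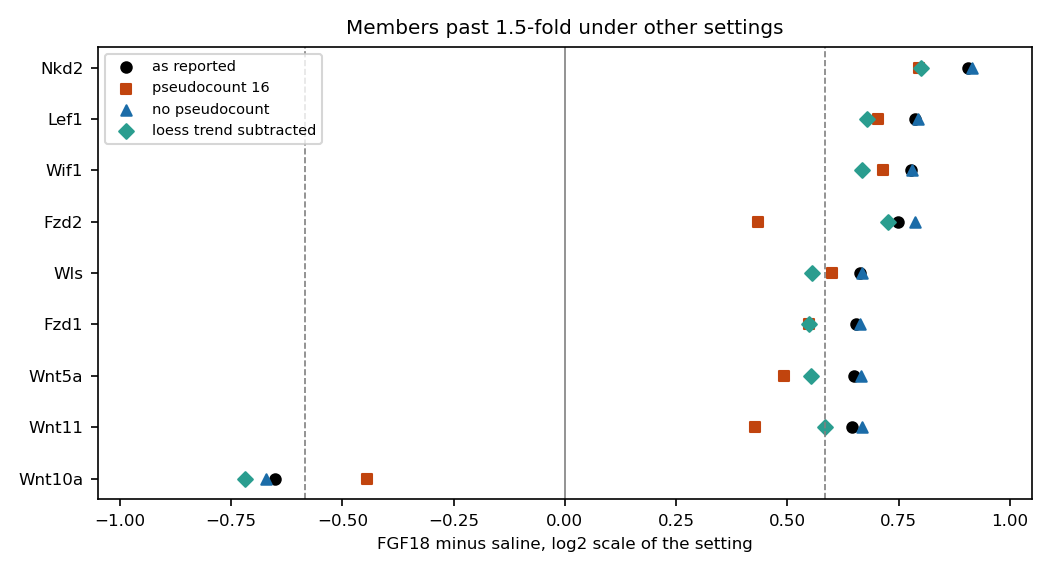
Difference of the 9 Wnt pathway genes past 1.5-fold, as reported and with a pseudocount of 16, with no pseudocount and after trend subtraction, with dashed lines at 1.5-fold. Nkd2, Lef1 and Wif1 stay beyond the line in all 4, and the other 6 cross it in at least 1.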

How the data were processed

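Skin RNA was hybridised to 2 arrays (Affymetrix Mouse Gene 2.0 ST), 1 per group, and the labels gave the groups. The authors made the values in Affymetrix Expression Console by RMA, per the submitters' processing notes, which corrects background, normalizes between arrays and summarises each transcript cluster. Tool versions were not given in the sources used here. Values were deposited as linear intensities, as judged from their range of 1.39 to 11488 in saline. Arrays have no read depth.

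Of 41345 clusters, the platform annotation gave 1 symbol to 23521. These were averaged per symbol as log2(intensity + 1), which gave 22180 genes. Of the 60 members, 56 had 1 cluster and 4 had 2. Differences are FGF18 minus saline. No test was possible, so a call is a difference of at least 1.5-fold, set beside the share of all genes that passed it. Differences between clusters of the same gene had a standard deviation of 0.24 over 319 genes, which covers probe disagreement and not animals.

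Alternatives were a pseudocount of 16 or none, the brightest cluster, clusters with several symbols, centring, subtraction of a loess trend (span 0.3), a filter at the median level over genes and a 2-fold threshold. Named genes were all members, and the 5 highest and 5 lowest of each further list at or above the array median on both arrays. Gsk3b, Vangl1, Celsr3 and the dim targets were named after their values were seen. The members and lists were chosen with earlier results of these data known. Steps were tested on simulated data with planted folds. These were at least 2-fold, in brighter genes and with little added noise, so that test does not cover calls near 1.5-fold. Python 3.11.15, pandas 2.3.3 and statsmodels 0.14.6 were used.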

Additional observations from a re-analysis of the deposited data

How the results depend on the processing

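Of 360 values of single members under 6 alternatives, 359 stayed within 0.24, the standard deviation between clusters of a gene, of the reported difference. The exception was Fzd2, at 0.44 with a pseudocount of 16. Many of the 360 values could not move. Centring subtracted a median of 0.00, and counting clusters with several symbols left every member unchanged. The brightest cluster could change only the 4 members with 2 clusters. For the other members the comparison rests on the 2 pseudocount settings and the trend subtraction. Under all 6 alternatives, 54 of 60 members kept their sign. The others were Dkk3, Lrp5, Sfrp2, Sfrp4, Tcf7l1 and Wnt2, which were equal or nearly so. The count of members at least 1.5-fold higher, 8 as reported, was 4 with a pseudocount of 16, 5 after trend subtraction and 0 at 2-fold, where the shares of all genes were 0.546%, 2.25% and 0.257%, against 2.61% as reported. The count at least 1.5-fold lower, 1 as reported, was 0 with a pseudocount of 16 and 0 at 2-fold, where the shares of all genes were 1.39% and 1.06%, against 4.15% as reported. With a pseudocount of 16 the median difference was 0.10 over the members, 0.13 over the receptors, 0.10 over the further pathway genes and 0.19 over the targets, since that pseudocount shrinks all differences of dim genes. After trend subtraction it was 0.13 over the members, 0.091 over the R-spondin arm and 0.10 over the further pathway genes. Over genes at or above the median level it was 0.27 over 39 members, 0.27 over 3 secreted inhibitors and 0.48 over 16 targets, and with the brightest cluster it was 0.38 over the targets. The filter leaves out dimmer genes, and the brightest cluster can change only genes with several clusters. Which genes made these last shifts was not tested. The receptor median without Fzd10os, chosen after the data were seen, was 0.24. Leaving out a replicate was not possible with 1 array per group. No paired analysis was possible because each group has 1 array. Signal over background limits the 19 members below the median on at least 1 array.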
